A study of Homo sapiens with 6 samples.

Results

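The interferon regulatory factors (IRFs) are DNA-binding proteins that switch interferon genes and interferon-stimulated genes on or off. The family was taken as 8 genes, IRF1, IRF2, IRF3, IRF4, IRF5, IRF7, IRF8 and IRF9, chosen by gene symbol among the 63236 genes listed in the deposited table. The 8 symbols matched 9 rows, because IRF7 is listed a second time under another identifier (ENSG00000276561.4) at a mean of 0. Of the 8 genes, 7 reached a mean normalized count of 10 over the 6 libraries and entered the fit of 16040 genes, and IRF4 did not.

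The study silenced SPINK2, a serine protease inhibitor gene, in FUJIOKA cells, an established human acute myeloid leukaemia (AML) line, and sequenced mRNA from 3 libraries with a non-targeting scrambled shRNA (shNEG) and 3 with a shRNA against SPINK2 (shSPINK2). All cells carried a lentiviral vector packaged in 293T cells, were selected with puromycin and received doxycycline, which turns on the shRNA. The labels name 2 SPINK2 shRNAs and the methods 1, and neither says which shRNA a given shSPINK2 library carries. Every library comes from 1 cell line, no untransduced or doxycycline-free cells were analysed here, and the labels do not say whether the 3 libraries of a group were separate cultures, so p-values measure the spread between these libraries, which may be technical.

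IRF proteins share a DNA-binding domain that recognises the interferon-stimulated response element (ISRE), a repeat of the letters GAAA. IRF3, IRF5 and IRF7 wait in the cytoplasm until kinases downstream of nucleic acid sensors phosphorylate them, and then turn on interferon genes, whereas IRF9 joins STAT2 in the complex ISGF3, which carries the interferon receptor signal to the ISRE. IRF8 directs monocyte and dendritic cell development together with PU.1, IRF4 acts mainly in lymphoid cells, and IRF1 and IRF2 act as activator and antagonist on a shared set of sites.

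The binding sites themselves are short. The windows shown here are 30 bases of promoter before a start site, given 5′ to 3′ on the strand of the gene, with the letters that match a site in capitals. They are shown because they are where ISGF3, STAT dimers or an IRF with PU.1 can bind next to the genes described here. The sequences are from RefSeq on GRCh38.p14. The first pair belongs to family members and holds the STAT dimer site GAS, written TTC, any 3 letters, GAA. The third is an ETS-IRF composite element (EICE, written GGAA, any 2 letters, GAAA, here on the opposite strand) at 1 of the listed IRF5 starts. The last pair holds an ISRE (written GAAA, any 2 letters, GAAA, in IFIT1 on the opposite strand) in the promoters of ISGF3 target genes.
IRF1 at chr5:132490878-132490907 (minus strand): acagcctgatTTCCCCGAAatgacggcacg
IRF9 at chr14:24161192-24161221 (plus strand): accacgtgatTTCTGGGAAaaggccctccc
IRF5 at chr7:128940627-128940656 (plus strand): gtctagccacTTTCGTTTCCcctggggccg
IFI6 at chr1:27672329-27672358 (minus strand): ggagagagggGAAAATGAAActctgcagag
IFIT1 at chr10:89392497-89392526 (plus strand): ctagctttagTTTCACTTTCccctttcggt

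The GAS of IRF1 begins at position -124 from its start site and that of IRF9 at -63. Searched on both strands of 35116 promoters of 300 bases each, the ISRE letters occurred in 3.57%, the GAS letters in 7.66% and the EICE letters in 2.82%, and an EICE can overlap an ISRE. No listed promoter of IRF1, IRF4, IRF5, IRF8 or IRF9 held the ISRE letters. IRF2, IRF3 and IRF7 had no promoter entry and were not searched. Among the gene lists described further on, the ISRE letters lay in at least 1 listed promoter of 15 of the 20 ISGF3 target genes with an entry and of 12 of the 14 IRF1 and interferon gamma target genes. They lay in 4 of 9 interferon genes, 2 of 13 sensors, adaptors and kinases, 2 of 7 corepressors and negative regulators, 1 of 11 IRF8 and PU.1 targets, 0 of 7 receptor, JAK and STAT genes and 0 of 6 DNA-binding partners. These are counts of genes, and a gene can have several promoters, so the percentages of single promoters are not a like background for them. A match describes letters in a window, not a bound site.

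SPINK2 itself was examined first, as a check of the direction of the comparison. It cannot check the labels of single libraries, because reads and groups were recovered with the deposited fold change as a key. SPINK2 had 53, 63 and 56 reads in shNEG and 6, 9 and 7 reads in shSPINK2. The groups did not overlap, and the mean normalized count fell by 87.3%, a log2 ratio of -2.98. The exact two-sided permutation test of 3 libraries against 3 gave p = 0.1, the smallest value this design allows. Each library held between 31866263 and 32599394 decoded reads, and log2 values of library pairs correlated at 0.997 to 0.998 within groups and at 0.976 to 0.978 between groups, over the 12503 genes whose mean reached 50. Libraries are named a, b and c within a group by their size factor, because the recovered reads carry no replicate number.

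In the cell line the most abundant member was IRF8. Levels were compared between genes as normalized counts (reads divided by the library's size factor) per kilobase of the canonical GENCODE 44 transcript. In shNEG cells, IRF8 stood at 3657 ± 27.5 (SD, n = 3), IRF3 at 2850 ± 16.1 and IRF5 at 1379 ± 22.1. IRF2 followed at 337 ± 5.71, IRF1 at 281 ± 11.7, IRF7 at 184 ± 3.46 and IRF9 at 37.9 ± 8.33. The IRF3 and IRF9 levels depend on how reads over exons shared with another gene were counted, which is not given in the sources used here. IRF4 was close to absent, at 0.941 ± 0.188. No neighbours in this order overlapped between shNEG libraries, but the order of the middle group rests on the choice of length. Per kilobase of all annotated exons, IRF7 (136) lay above IRF2 (113) and IRF1 (81.5). On that length IRF8 (1243) stayed the highest, but close to IRF3 (1198). Per kilobase of the canonical transcript, the order of the means in shSPINK2 cells moved IRF7 (287) level with IRF1 (285). The 3 IRF7 libraries, from 230 to 329, spanned the 3 IRF1 libraries, from 281 to 291.

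**Figure D1:**
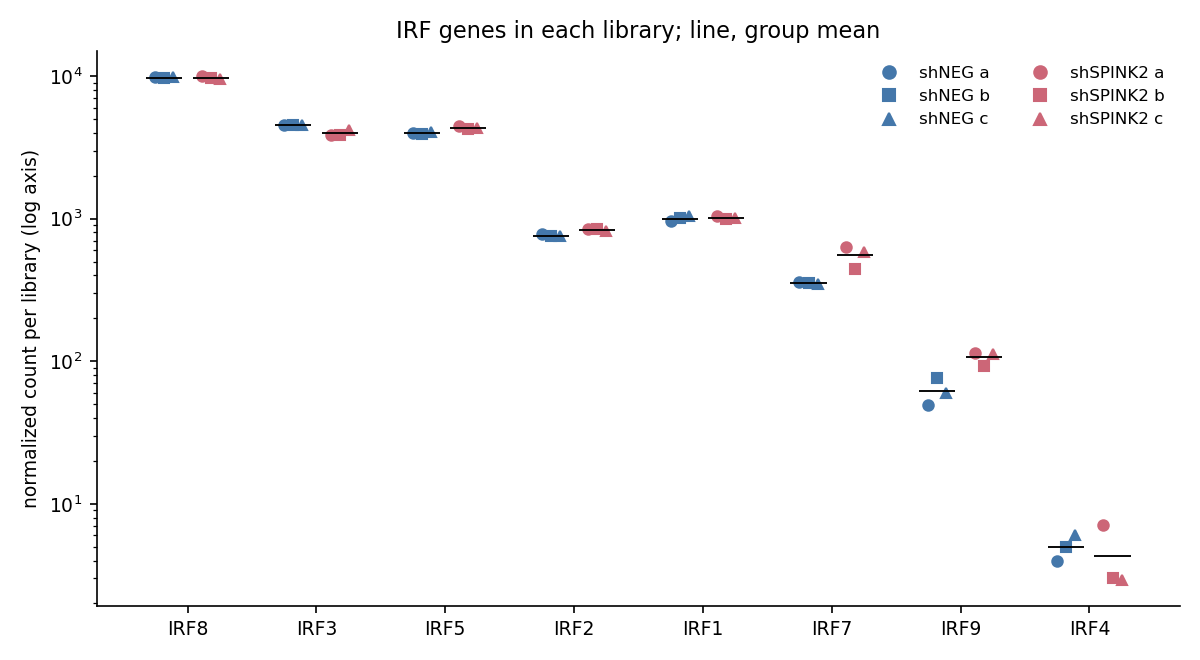
Normalized counts (log axis, not divided by length) of the 8 IRF genes in each of the 3 shNEG and 3 shSPINK2 libraries; points are libraries and lines are group means. The shSPINK2 libraries of IRF7 and IRF9 lie above all shNEG libraries, IRF8 and IRF1 overlap, and IRF4 has under 10 counts in every library.

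The comparison of shSPINK2 with shNEG sets the transcriptome of cells with a shRNA against SPINK2 beside that of cells with the scrambled shRNA. Loss of SPINK2 and other effects of the shRNA cannot be told apart in this design. Reads were tested with limma on log2 values, and a gene was called at a Benjamini-Hochberg adjusted p under 0.05. Of the 7 fitted members, IRF2, IRF5, IRF7 and IRF9 rose, IRF3 fell, and IRF1 and IRF8 were not called. That is 5 of 7 called, beside 58.5% of all genes fitted (28.7% higher and 29.8% lower), so the share of members called was not far from the background. The groups of libraries did not overlap for 5 of the 7, beside 62.5% of all genes fitted. No member passed the study's additional threshold of 1 on the log2 scale, which 1.85% of all genes passed upwards and 2.97% downwards. The median log2 fold change of the 7 members was 0.11, against 0.000864 over all genes fitted, and their median absolute log2 fold change was 0.14, against 0.27.

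IRF9 (ENSG00000213928.8, chr14:24161234-24168043), the DNA-binding subunit of ISGF3, showed the largest fold change of the family. It had 49.1, 76.0 and 59.8 normalized counts in shNEG and 115, 92.1 and 112 in shSPINK2. The groups did not overlap, but the highest shNEG library and the lowest shSPINK2 library were closer to each other than to the extremes of their groups. The mean rose from 61.6 ± 13.5 to 106 ± 12.4 (SD, n = 3 each), a log2 fold change of 0.80 with a 95% confidence interval of 0.48 to 1.12 (limma adjusted p = 4.07e-05). IRF9 also had the lowest count of the fitted members, and 27.2% of its annotated exon bases are shared with other genes. One of these (ENSG00000259529) is a protein-coding gene on the same strand that shares 1544 exon bases. The canonical IRF9 transcript has 1626 bases, and how many of the shared bases lie in it was not examined. The count of ENSG00000259529 moved the other way, from 40, 42 and 29 reads in shNEG to 25, 21 and 25 reads in shSPINK2. That was a log2 fold change of -0.63 (limma adjusted p = 0.0181). How reads over shared exons were divided between these genes is not given in the sources used here. The level of IRF9 and the size of its change are therefore less certain than its count alone would give.

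IRF7 (ENSG00000185507.19, chr11:612553-615983), the factor that amplifies type I interferon production once interferon signalling has begun, had the largest moderated t of the family. It had 362, 351 and 350 normalized counts in shNEG and 633, 442 and 583 in shSPINK2. The shNEG libraries were nearly identical and the shSPINK2 libraries were all higher, with library b below the other two. The mean rose from 354 ± 6.95 to 553 ± 99.2 (SD, n = 3 each), 1.56-fold, with a log2 fold change of 0.62 and a 95% confidence interval of 0.45 to 0.80 (limma adjusted p = 1.83e-07). No exon of IRF7 overlaps another gene in GENCODE 44.

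IRF3 (ENSG00000126456.15, chr19:49659569-49665875), the constitutive factor that responds first to cytosolic nucleic acid sensors, was the member that fell. It had 4516, 4556 and 4564 normalized counts in shNEG and 3866, 3836 and 4211 in shSPINK2. All shSPINK2 libraries were below all shNEG libraries, and library c was the nearest to them. The mean fell by 12.6%, a log2 fold change of -0.20 with a 95% confidence interval of -0.29 to -0.10 (limma adjusted p = 3.14e-04). BCL2L12, on the opposite strand, shares 19.3% of the annotated exon bases of IRF3 and changed in the same direction, by -0.26 on the log2 scale (limma adjusted p = 3.50e-05). Whether reads were counted by strand is not given in the sources used here, so the reads of the shared bases cannot be told apart.

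IRF5 (ENSG00000128604.19, chr7:128937457-128950038), which acts below Toll-like receptors in myeloid cells, had 3969, 3951 and 4070 normalized counts in shNEG and 4434, 4226 and 4314 in shSPINK2. The groups did not overlap. The difference was small, a log2 fold change of 0.11 with a 95% confidence interval of 0.026 to 0.20 (limma adjusted p = 0.0237), and the call was lost without shNEG_a, shNEG_b or shSPINK2_a, with an adjusted p of up to 0.0992 and log2 fold changes from 0.095 to 0.13 over the 6 fits that each left out 1 library.

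IRF2 (ENSG00000168310.10, chr4:184385702-184474558), the constitutive antagonist of IRF1, had 775, 750 and 757 normalized counts in shNEG and 845, 851 and 813 in shSPINK2. These groups did not overlap either, and the mean differed by 10.0%. The log2 fold change was 0.14 with a 95% confidence interval of 0.021 to 0.25 (limma adjusted p = 0.0394). Only the fit without shSPINK2_c kept the call among the 6 that left out 1 library. The other 5, without shNEG_a, shNEG_b, shNEG_c, shSPINK2_a or shSPINK2_b, lost it, with adjusted p-values of up to 0.121 and log2 fold changes of 0.12 to 0.16 over all 6.

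IRF1 (ENSG00000125347.13, chr5:132440440-132508719), the activator induced by interferon gamma, was not called. It had 955, 1004 and 1038 normalized counts in shNEG and 1035, 1000 and 1006 in shSPINK2, and the groups overlapped. The log2 fold change was 0.021, and its 95% confidence interval of -0.090 to 0.13 limits any difference to between 0.939-fold and 1.10-fold (limma adjusted p = 0.763). IRF1-AS1, an antisense gene, shares 22.9% of the annotated exon bases of IRF1 at a mean of 69.6 normalized counts.

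IRF8 (ENSG00000140968.10, chr16:85899116-85922606), the lineage factor of monocytes and dendritic cells, had 9799, 9673 and 9801 normalized counts in shNEG and 10003, 9667 and 9530 in shSPINK2. The groups overlapped. The log2 fold change was -0.0039 with a 95% confidence interval of -0.090 to 0.082 (limma adjusted p = 0.945), so a change of more than 1.06-fold upwards or to less than 0.94-fold lies outside the interval.

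IRF4 (ENSG00000137265.14, chr6:391739-411443), known from plasma cells and activated lymphocytes, had 4, 5 and 6 reads in shNEG and 7, 3 and 3 in shSPINK2. A difference was not detectable at this depth: without the filter on the mean, the log2 fold change was -0.28 with a 95% confidence interval of -1.35 to 0.80 (limma adjusted p = 0.728).

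**Figure D2:**
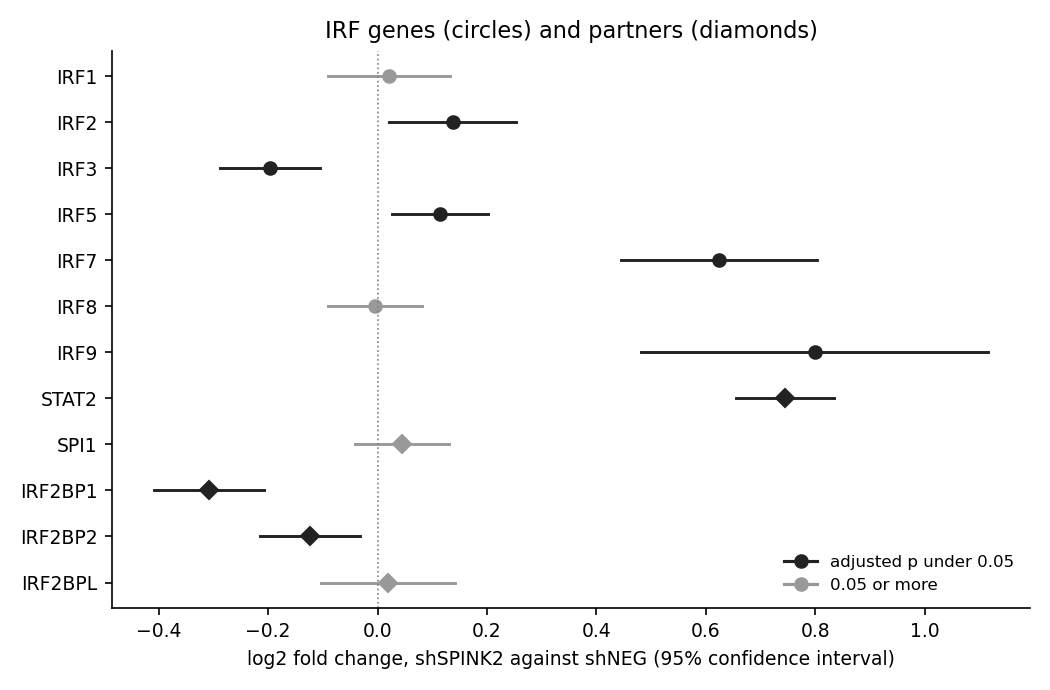
Log2 fold change of shSPINK2 against shNEG with its 95% confidence interval, from the limma fit over 16040 genes, for the 7 fitted IRF genes and 5 partner genes, coloured by whether the adjusted p is under 0.05. IRF7, IRF9 and STAT2 lie between 0.62 and 0.80, IRF3, IRF2BP1 and IRF2BP2 lie below 0, and the intervals of IRF1, IRF8, SPI1 and IRF2BPL span 0.

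The proteins that work with the IRFs were read from the same fit. STAT2, the partner that IRF9 binds in ISGF3, had 2364, 2402 and 2453 normalized counts in shNEG and 4052, 3940 and 4109 in shSPINK2. All shSPINK2 libraries were well above all shNEG libraries, and the log2 fold change was 0.74 ± 0.044 (SE, limma adjusted p = 2.13e-16). SPI1, which encodes the IRF8 partner PU.1, overlapped between groups, with 10345 to 10784 normalized counts in shNEG and 10723 to 10967 in shSPINK2 and a log2 fold change of 0.045 (limma adjusted p = 0.373).

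Of the 3 corepressor genes named after IRF2, 2 fell and 1 was not called. IRF2BP1 had 2115, 2039 and 2128 normalized counts in shNEG and 1791, 1671 and 1614 in shSPINK2, a log2 fold change of -0.31 (limma adjusted p = 1.82e-06). IRF2BP2 fell from 13338, 13455 and 13745 to 12843, 12784 and 11639, a log2 fold change of -0.12 (limma adjusted p = 0.0191). IRF2BPL overlapped, at 717 to 792 normalized counts in shNEG and 740 to 770 in shSPINK2, and was not called (log2 fold change 0.019, limma adjusted p = 0.801).

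Genes around the family were grouped by their place in the pathway, and their counts stand beside the 28.7% of all fitted genes that rose and the 29.8% that fell. Of the 9 interferon receptor, JAK and STAT genes, 7 rose and 0 fell (median log2 fold change 0.29), and STAT2 had the largest moderated t among them. The 16 sensors, adaptors and kinases that lead to IRF phosphorylation split, with 8 higher, 7 lower and a median of 0.034. In that list TASL, the adaptor through which endolysosomal Toll-like receptors reach IRF5, rose by 0.74 on the log2 scale, and IFIH1, the RNA sensor MDA5, by 0.74. The kinase genes IKBKE and IKBKB fell by 0.78 and 0.56 on the same scale. Of 10 genes for type I and III interferons and interferon gamma, 0 reached the filter, and the highest, IFNW1, had a mean normalized count of 1.49.

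Of the 7 fitted DNA-binding and chromatin partners, 1 rose and 5 fell, where 28.7% of all fitted genes rose and 29.8% fell, and the median log2 fold change was -0.22. BATF3, a partner of IRF4 and IRF8 on composite sites, fell by 0.73 and the acetyltransferase gene CREBBP fell by 0.26, while ETV6 rose by 0.15. Of the 9 corepressors and negative regulators, 2 rose and 4 fell, with a median of -0.10. Among them TRIM21, a ubiquitin ligase that acts on IRF proteins, rose by 0.49 and the phosphatase gene PTPN6 by 0.30, whereas IRF2BP1 fell as given above.

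Most ISGF3 targets were higher in shSPINK2 cells. All 24 were fitted, 19 rose, 1 fell and 4 were not called, with a median log2 fold change of 0.62, where 28.7% of all genes rose and the median was 0.000864. IFIT1, which binds foreign RNA, rose from 143, 106 and 153 normalized counts to 404, 337 and 444, a log2 fold change of 1.57 (limma adjusted p = 3.43e-14). IFI6 rose from 3561, 3481 and 3677 to 6779, 5828 and 6884, a log2 fold change of 0.86 (limma adjusted p = 1.54e-16). CMPK2, a mitochondrial nucleotide kinase gene, was the 1 target that fell, by 0.47 on the log2 scale.

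Genes listed as IRF1 and interferon gamma targets split in direction. Of the 18 fitted of 24, 9 rose and 6 fell, beside the same 28.7% and 29.8%, with a median of 0.094. APOL1 rose by 1.67 on the log2 scale and WARS1 by 0.45, while NLRC5, the transactivator of class I antigen presentation genes, fell by 0.65 and CASP1 by 0.50. B2M was not decoded into reads and is not analysed here. Of the 9 fitted of 14 genes listed as IRF8 and PU.1 targets, 5 rose and 1 fell, with a median of 0.22. LYZ of that list, at a mean normalized count of 44100, was not decoded into reads either and is not analysed here. CST3, the protease inhibitor cystatin C, rose by 0.56 on the log2 scale, whereas CYBB, the catalytic subunit of the phagocyte oxidase, fell by 0.21.

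The shSPINK2 libraries differed among themselves in these genes. Library b was the lowest of the 3 shSPINK2 libraries in 19 of the 24 ISGF3 targets, as it was for IRF7 and IRF9. Against the shNEG mean, the median ISGF3 target stood at 0.68 on the log2 scale in library a, 0.49 in library b and 0.68 in library c, while the shNEG libraries lay between -0.035 and 0.028. IRF7 stood at 0.84, 0.32 and 0.72 in the same 3 libraries. All 3 shSPINK2 libraries thus remained above the shNEG libraries for the list median and for IRF7, and without library b the log2 fold change of IRF7 was 0.78, that of IRF9 0.90 and the number of ISGF3 targets that rose 19. SPINK2 had 6 reads in library a, 9 in library b and 7 in library c, and whether residual SPINK2 or the shRNA carried plays a part was not tested.

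**Figure D3:**
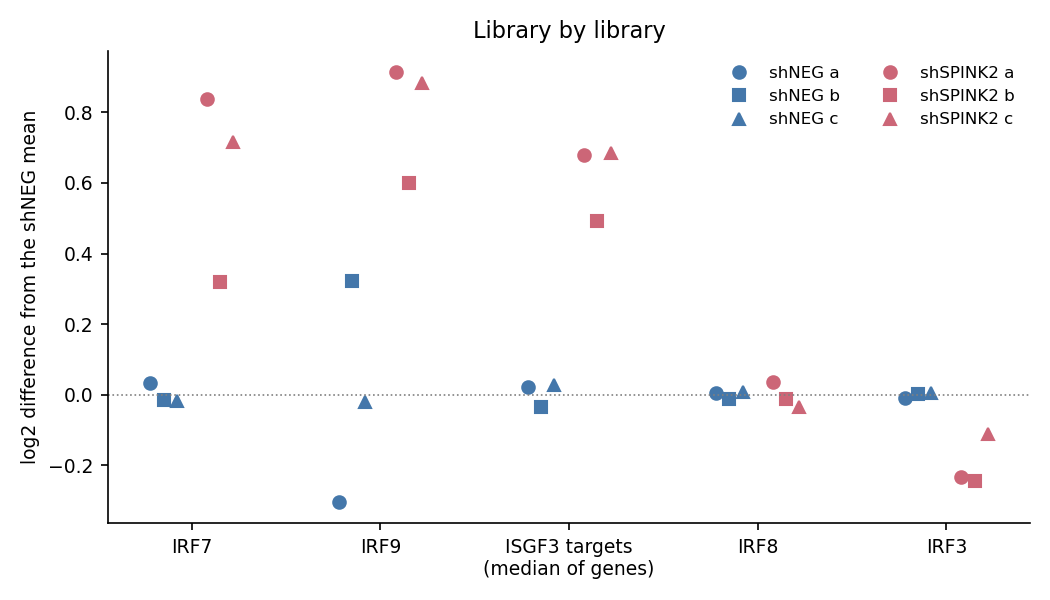
Log2 difference of each library from the mean of the 3 shNEG libraries for IRF7, IRF9, the median of 24 ISGF3 targets, IRF8 and IRF3. Library b of shSPINK2 is the lowest of its group for IRF7 (0.32), IRF9 (0.60) and the ISGF3 targets (0.49), and IRF8 stays within 0.036 of 0 in all 6 libraries.

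Genes whose levels ran most like those of the 2 members with the largest moderated t were taken among 12502 others whose mean reached 50. For IRF7 these were JOSD2, ZNF785 and LINC00476, with Pearson's r of log2 values over the 6 libraries of 0.997, 0.996 and 0.996. For IRF9 they were TRIM23, ZNF784 and RAB11B-AS1, with r of 0.994, 0.989 and 0.986. The 6 points share the difference between the groups, and 10 genes exceeded 0.99 for IRF7 and 1 for IRF9.

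Markers of cell types that express particular IRFs were read beside the family. The AML markers CD33, MPO, SPI1, CEBPA and PTPRC had over 1000 reads in every library, CD34 had 11 to 31, and KIT had a mean of 0.666. Of these 7, CD33 and PTPRC rose and MPO and CD34 fell, and the summed normalized count was 58838 to 62101 in shNEG and 63051 to 66484 in shSPINK2. Plasmacytoid dendritic cells are rich in IRF7 and IRF8. Of their 5 markers, IL3RA and TCF4 rose, and GZMB and CLEC4C were not called. LILRA4, under the filter, was lower in every shSPINK2 library, with 3, 3 and 4 reads against 6, 7 and 7 in shNEG. The summed normalized count of the list, nearly all TCF4 and IL3RA, was 2058 to 2264 in shNEG and 2645 to 2770 in shSPINK2. Of the 5 monocyte and macrophage markers CSF1R and FCGR1A rose, CD14 (0 to 8 reads), CD68 and MPEG1 were under the filter, and the sum was 4019 to 4265 in shNEG and 5030 to 5190 in shSPINK2. Of the 6 B and plasma cell markers CD79A rose, MS4A1 and SDC1 had means of 0.333 and 0.161, and the sum was 378 to 434 in shNEG and 461 to 544 in shSPINK2. Of the 5 T and NK markers NKG7 rose, CD3E and CD8A had means of 0.5 and 0.664, and the sum, nearly all NKG7, was 4157 to 4204 in shNEG and 5920 to 6563 in shSPINK2. Of the 4 markers listed as non-haematopoietic PECAM1 rose, COL1A1 fell, KRT8 was not called and EPCAM was at 0, with sums of 320 to 341 in shNEG and 350 to 369 in shSPINK2. PECAM1 (CD31) is also expressed by monocytes and other leukocytes, and without it the sums were 275 to 293 in shNEG and 197 to 214 in shSPINK2. The part of these markers in the IRF results was not tested, and in bulk RNA a change in the number of cells of a type and a change in RNA per cell cannot be told apart.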

How the data were processed

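Paired reads of mRNA libraries were aligned to hg38 with STAR 2.7.11 and assigned to genes with featureCounts. The authors then ran DESeq2 1.40.0 on shSPINK2 against shNEG (versions from the submitters' processing notes). The annotation release and strandedness are not given in the sources used here. The deposited signal is 1 mean normalized count per gene over all 6 libraries. The authors' other columns hold a fold change, its standard error, a test statistic, p-values and adjusted p-values, whose values are not reported or compared. The deposited log2 fold change and its standard error served only as a key to recover reads.

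Genes with 1 read in 1 library share a mean. Size factors follow from the 6 shared means, and each library's group from whether the key is above or below 0. The reads of a gene are the integers whose weighted mean equals the deposited mean and whose refitted log2 ratio differs from the key by under 2e-13 (below a mean of 10, by the mean alone). This gave 1 solution for 16040 of 16131 genes at or above a mean of 10 (99.4%), and the other 91, all highly expressed, were left out. All values per library are therefore reconstructed, and library totals cover decoded genes. The decoder and the fit were tested on simulated data.

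Log2(reads / size factor + 0.5) was compared with limma 3.58.1 in R 4.3.3 (lmFit, eBayes with trend, Benjamini-Hochberg), 3 against 3 libraries, without covariates, for genes at or above a mean of 10. Fold changes are differences between group means on that scale, so they can lie above or below the log2 ratio of group means. The added 0.5 draws changes of low genes towards 0. Genes were named by a rule: SPINK2, the 8 members, of each list up to 2 called genes with the largest moderated t in each direction, 6 fixed partners, and the 3 genes most alike each of 2 members. Some genes that this rule takes are not reported here. Overlapping genes, markers, IFNW1, B2M and LYZ are named outside it, after their values were seen. The members, lists, markers and rule were chosen with earlier results of these data known. Older symbols were matched for TASL (CXorf21), WARS1 (WARS) and 3 sensors. Alternatives were another pseudocount, other filters, total-read scaling, voom weights, an adjusted p of 0.01 and leaving out each library. Gene coordinates are GENCODE 44 on GRCh38. Promoters, in which 5 of the 8 members had an entry, are RefSeq on GRCh38.p14.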

Additional observations from a re-analysis of the deposited data

How the results depend on the processing

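IRF3, IRF7 and IRF9 kept their direction and their call under all 12 alternatives run, with log2 fold changes of -0.24 to -0.17, 0.52 to 0.78 and 0.65 to 0.96 and adjusted p-values of at most 0.00294, 3.67e-05 and 0.00105. IRF1 and IRF8 were not called under any of the 12. IRF2 lost its call under 7 of the 12 alternatives and IRF5 under 4, without a change of direction. The number of members called was 5, 4 without the filter on the mean, 3 at an adjusted p under 0.01, and 3 to 5 when each library was left out in turn. The number of genes called lay between 7817 and 9456. The genes that passed the threshold of 1 upwards numbered 296, against 192 with a pseudocount of 5, 499 without the filter and 136 where the mean reached 50. Scaling by total decoded reads called 4881 genes higher and 4575 lower, against 4601 and 4787. The log2 ratio of SPINK2 ranged from -3.15 to -2.87 when each library was left out. The count of ISGF3 targets that rose, for which leaving out libraries was chosen after seeing the data, was 19 in each of those 6 fits. No paired analysis was possible because the recovered libraries carry no replicate number. With about 5 counts per library for IRF4, counting error alone limits that gene.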
